A study of Mus musculus with 110 samples.

Results

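Junctions on mouse chromosome 12 that lay outside the region of Igh V(D)J recombination numbered 2861 of 3602400 junctions in 98 libraries, or 0.0794%. They were chosen by position alone, as every junction on chromosome 12 below a boundary just under the JH bait on the constant-gene side or above a boundary past the outermost VH segments. Of the 2861 junctions, 2845 lay on the constant-gene side and 16 on the distal, VH side. Within 10 kb of the lower boundary 11 junctions fell just inside the rule and 437 just outside it, and within 100 kb of the upper boundary 0 fell inside and 1318 outside.

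The libraries come from LAM-HTGTS, a linear amplification assay in which each read joins a fixed bait, here the coding end of the JH4 segment, to the prey sequence it was ligated to. The cells were v-Abl transformed pro-B lines, a culture model of early B cells that are RAG2-deficient and carry an Eμ-Bcl2 transgene; they received RAG2 by nucleofection and were held for 4 days in 3 µM STI-571, an Abl kinase inhibitor that arrests them and permits recombination. Where auxin (IAA) was used, 500 µM was given 6 h ahead and kept on with STI-571; IAA causes breakdown of a degron-tagged protein in cells that make OsTIR1. The groups, each without (NT) and with IAA, were the parental line (4 replicates each), the line with an OsTIR1 knock-in only (4 each), the line with CTCF-mAID-GFP tagging only (4 each), the CTCF degron line (6 each), the Rad21 degron line (3 each) and the Rad21 degron line with IGCR1 deleted (4 each). IGCR1 is a regulatory element between the VH and D segments. A thirteenth group of 6 libraries came from B220+CD43+IgM- pro-B cells sorted from bone marrow of wild-type 129SV mice, for which the labels name no drug. Separate cultures or clones are not named, so p-values measure only the spread between these samples. Totals per replicate ran from 14866 to 231023 junctions in the parental, OsTIR1, CTCF-tagged, CTCF degron and Rad21 degron NT replicates, from 5329 to 15327 in IGCR1-deleted NT, from 1263 to 2668 in the Rad21 degron lines with IAA, and from 30090 to 89909 in bone marrow.

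RAG, the recombinase of V(D)J recombination, cuts beside recombination signal sequences, whose conserved heptamer begins with the letters CAC. Bound at the JH segments, RAG can also meet distant chromatin that cohesin, of which Rad21 is a subunit, reels past it by loop extrusion, and CTCF bound to DNA can halt that movement. On its constant-gene side the Igh locus ends in an enhancer region and then a group of CTCF-binding elements, beyond which lie unrelated genes such as Tmem121, Crip1 and Crip2.

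The junctions were not spread evenly. On the constant-gene side 2183 of them, 76.3% of all members, lay in a cluster between positions 114460986 and 114462902 of chromosome 12 (mm9), a stretch of 1917 bp that is 208 to 210 kb from the bait and intergenic, between an annotated U6 gene and Gm900, the annotated name of a constant gene. Between the boundary and the cluster, in the interval that holds the constant genes, there were 281 junctions. The stretch past the cluster to 300 kb from the bait held 37, the stretch from there to 1 Mb held 7, and the rest of the chromosome, more than 1 Mb from the bait, held 337. With identical junctions of a library counted once, 2309 members remained in all and 1739 in the cluster. In the cluster 2098 of 2183 junctions (96.1%) were in plus orientation, against 56.1% of those over 1 Mb away. On this side a plus junction connects the bait end to a prey that then reads back toward the bait, and a minus junction connects it to a prey that reads away.

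Of the 2098 plus junctions in the cluster, 2038 (97.1%) fell in 3 windows of 200 bp, which were also the 3 most used windows among all members. Reference sequence around each is shown because the junctions pile up at one short word in each, a CAC with the 4 letters that follow it, given in capitals (mm9 plus strand, chr12:114461037-114461156, chr12:114462362-114462481 and chr12:114462655-114462774).
the first site: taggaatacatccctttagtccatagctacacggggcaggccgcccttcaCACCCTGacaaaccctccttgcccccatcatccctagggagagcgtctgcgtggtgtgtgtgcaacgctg
the second site: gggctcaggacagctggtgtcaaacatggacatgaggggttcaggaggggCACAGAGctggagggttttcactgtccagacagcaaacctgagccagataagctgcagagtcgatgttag
the third site: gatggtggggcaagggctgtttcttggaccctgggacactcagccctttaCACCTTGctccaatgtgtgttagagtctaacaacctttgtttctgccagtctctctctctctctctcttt

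The 3 words share 5, 6 and 5 of 7 letters with the canonical heptamer CACAGTG, in the order printed. At the first site, whose CAC starts at 114461087, 362 of 535 plus junctions (67.7%) had a prey that began from 1 base before the CAC to 6 bases after it, and 167 began exactly at it. At the second site, with its CAC at 114462412, 796 of 1042 (76.4%) did so, and the commonest position, 114462411 with 158 junctions, was the base before the CAC. At the third site, with its CAC at 114462705, the count was 377 of 461 (81.8%), of which 140 began exactly at the CAC. The sites are 1325 and 293 bp apart, and each was found in at least 70 libraries (73, 74 and 70). Junctions in minus orientation numbered 8, 29 and 40 at the 3 sites, of which 7, 28 and 27 lay from 10 bases before to 9 bases after the start of the same CAC. Of those near the CAC, 7, 14 and 25 lay on its left. At the third site another 12 lay 10 to 17 bases to its right.

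**Figure D1:**
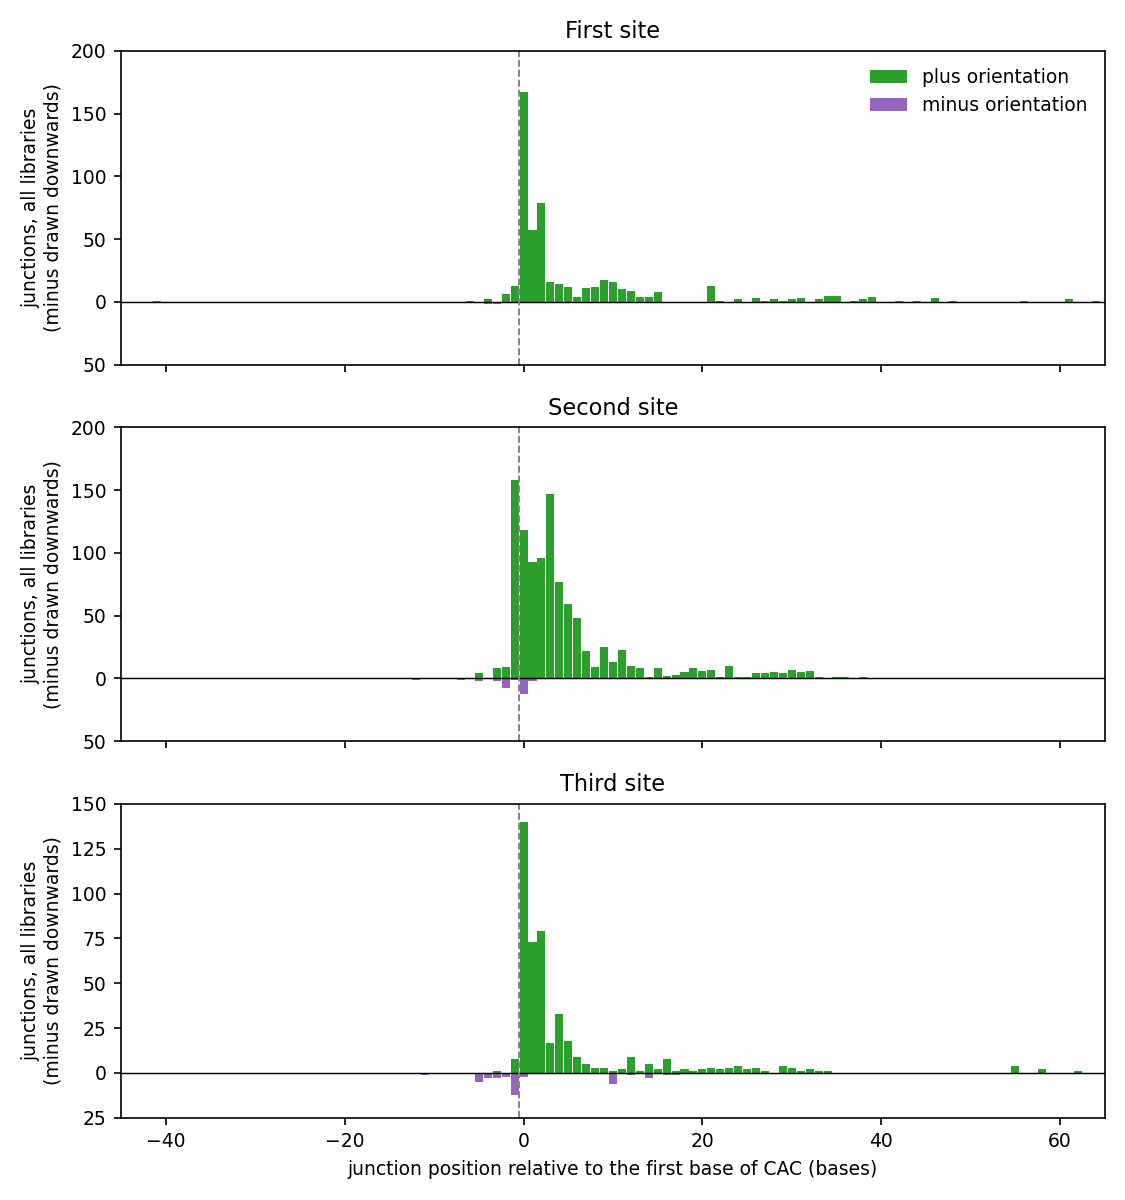
Number of junctions (vertical axis, all libraries together, minus orientation drawn downwards) by position relative to the first base of the CAC (horizontal axis, bases) at each of the 3 sites. Plus junctions pile up from 1 base before the CAC to 6 bases after it and few start further left, with 17, 21 and 1 more than 1 base before it at the first, the second and the third site.

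Over the whole cluster, the prey of 452 of 2097 plus junctions that could be placed on mm9 (21.6%) began exactly at a CAC and 65.2% within 3 bases of one, where 2.21% and 12.7% of all positions in the surrounding 10 kb do. For minus junctions the matching quantity is a CAC that begins just beyond the prey, and 18.8% had one exactly and 67.1% within 3 bases. The 60 plus junctions of the cluster outside the 3 windows gave 21.7% and 55.0%. The cluster was not alone in this. The 162 plus junctions in the interval of the constant genes gave 13.6% and 46.3%, and the 28 past the cluster, up to 300 kb from the bait, 10.7% and 28.6%. Among plus junctions over 1 Mb from the bait the shares were 5.66% and 14.5%. The positions were searched for CAC alone, so these shares describe where junctions start and do not mark signal sequences.

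The bait side of the junctions was described by how close the retained bait came to the JH4 end. Near the start of the bait, next to the primer and away from the joined JH4 end, the sequence differed between the library types. It was read from the junction reads themselves. Capitals mark the stretch that differs, and the labels do not say what the letters a and b stand for.
bait in libraries a: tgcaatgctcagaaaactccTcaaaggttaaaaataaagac
bait in libraries b: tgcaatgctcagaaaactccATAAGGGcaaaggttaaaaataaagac
bait in bone marrow libraries: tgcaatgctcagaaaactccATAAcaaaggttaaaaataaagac

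In the cluster 83.6% of plus junctions kept the bait to within 15 bases of its most frequent end, against 94.1% of the 3235710 plus junctions at the D segments. With both orientations together, the share was 77.9% in the interval of the constant genes and 67.6% past the cluster, up to 300 kb from the bait. Over 1 Mb from the bait it was 22.0%. Bases inserted between bait and prey were present in 69.9% of plus and 88.2% of minus cluster junctions and in 69.0% of D junctions. They were present in 60.5% of junctions in the interval of the constant genes, 78.4% past the cluster and 20.5% over 1 Mb away. Within the replicates of the CTCF degron line without IAA, bait ends within 15 bases made up 85.6% ± 4.37 (SD, n = 6) of cluster junctions and 94.2% ± 0.743 of D junctions, lower in 6 of 6 replicates (exact sign-flip test, two-sided, p = 0.0312, the smallest possible with 6, and 0.350 after Benjamini-Hochberg adjustment over 14 such tests). None of the 14 tests passed after adjustment.

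The level of the cluster differed several-fold between lines. Per 100000 junctions, the replicates of the parental line without IAA gave 28.3, 26.9, 98.7 and 79.5, and with IAA 28.1, 48.2, 83.3 and 64.4. In both treatments the pair of high values, replicates 3 and 4, came from another sequencing run than the pair of low values. The OsTIR1 line gave 28.5, 56.4, 33.4 and 43.7 without IAA and 31.3, 36.0, 18.8 and 29.6 with it. The CTCF-tagged line gave 36.3, 76.5, 52.0 and 42.3, and with IAA 46.4, 78.4, 51.4 and 32.8. In these 3 control lines the values with and without IAA overlapped. The CTCF degron line had the highest levels, from 68.6 through a median of 136 to 351 without IAA and from 38.6 through 88.7 to 379 with IAA. The Rad21 degron line had the lowest mean among the lines without IAA, with 8.52, 16.1 and 26.3, and its IGCR1-deleted form gave 22.2, 0, 75.1 and 41.5. Bone marrow pro-B cells held 1 cluster junction in 354425, which put 1 replicate at 1.26 and the other 5 at 0.

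**Figure D2:**
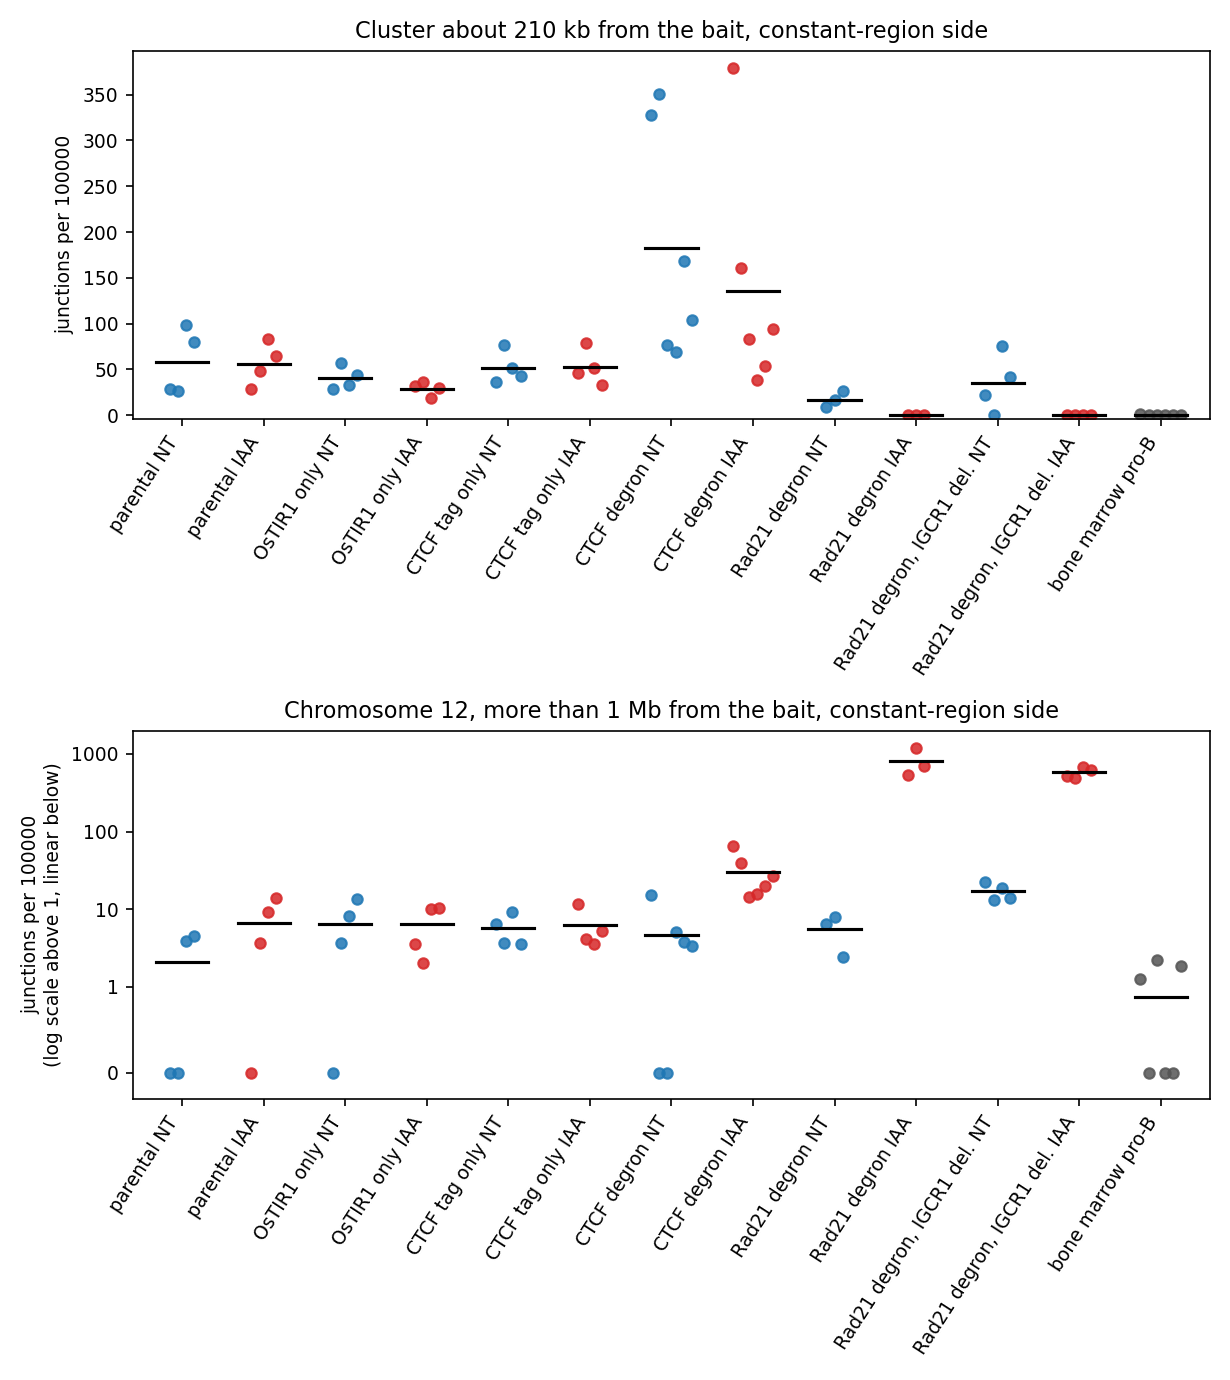
Junctions per 100000 in each replicate (points) with the group mean (bar) for the cluster about 210 kb from the bait (upper panel, linear axis) and for chromosome 12 more than 1 Mb from it (lower panel, log axis above 1). In the cluster the CTCF degron replicates reach 379 while the Rad21 degron lines with IAA are at 0; over 1 Mb away those lines lie between 490 and 1186 and all other replicates at or below 65.9.

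In a model over bins of distance and orientation, 1 bin of members held enough junctions to test, in 7 of the 10 comparisons: 200 to 300 kb in plus orientation, nearly all of it the cluster. Without IAA it was lower in the Rad21 degron line than in the parental line (log2 difference -2.10, SE 0.51, limma adjusted p = 0.00431), in a comparison in which 80.0% of the bins tested passed and 40.0% of the bins tested were lower. It was lower in bone marrow than in the parental line (log2 difference -6.06, SE 0.42, limma adjusted p = 3.61e-10, 60.0% of bins tested passed and 30.0% of bins tested were lower), from 1 junction against 399. Bone marrow and the lines also differ in bait sequence and share no sequencing run, so cell source and run cannot be told apart. The CTCF degron line without IAA was 0.87 (SE 0.46) above the parental line with a limma adjusted p of 0.227, where 0% of bins tested passed. Neither degron line shares a sequencing run with the parental line, so in these comparisons line and run cannot be told apart.

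Without a minimum on junctions per bin, limma called 4 of 14 member bins of the CTCF degron line higher under IAA, where 53.8% of all bins were called higher. Of these 4, 1 was the distal bin to 1 Mb in plus orientation. It rested on 2 junctions against 0 (log2 difference 1.06, SE 0.44, limma adjusted p = 0.0391), too few to read as a change. The largest change was in plus orientation over 10 Mb from the bait, with 25 junctions against 2 (log2 difference 2.94, SE 0.52, limma adjusted p = 2.18e-05). In the Rad21 degron line 7 of 8 member bins were called higher, where 82.4% of all bins were, and in the IGCR1-deleted line 8 of 9, where 85.7% were. The calls in these 2 lines cannot be read as changes, because their totals with IAA were far smaller and the pseudocount was 0.5: a bin with 0 junctions with IAA and 1 without was called higher in each (log2 difference 3.86 in the Rad21 degron line and 1.98 in its IGCR1-deleted form). In the same setting 1 of 10 member bins was lower in Rad21 degron NT than in parental NT, where 8.33% of all bins were, and 2 of 10 were lower in bone marrow, where 27.8% were.

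IAA did not move this bin past the threshold in any of the 4 lines that could be tested. In the parental line the log2 difference, IAA minus NT, was -0.25 (SE 0.26, limma adjusted p = 0.621), in the OsTIR1 line -0.45 (SE 0.29, limma adjusted p = 0.333) and in the CTCF-tagged line -0.01 (SE 0.28, limma adjusted p = 0.981), with 0% of all bins passing in each. In the CTCF degron line it was -0.17 (SE 0.60, limma adjusted p = 0.782), where 37.5% of all bins passed. That last value depended on the scale: with junctions outside the Igh V(D)J region as the total it was -1.42 (limma adjusted p = 1.86e-05), and with identical junctions counted once it was -1.26 (limma adjusted p = 0.0339). On that outside scale the CTCF degron line was 1.15 above the parental line (limma adjusted p = 0.00294).

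With IAA, 0 cluster junctions were found in the Rad21 degron line among 5566 junctions, which allows up to 53.9 per 100000, and 0 in its IGCR1-deleted form among 8434, which allows up to 35.6. Both limits exceed the level without IAA (16.7 and 26.7 per 100000 over all replicates), so a loss of cluster junctions relative to all junctions was not detectable at this depth. Shares among constant-side members also depend on the distant junctions, whose level was far higher with IAA. Over 1 Mb away the means without and with IAA were 5.53 and 806 per 100000 in the Rad21 degron line. In its IGCR1-deleted form they were 17.0 and 581. A lower share near the bait in these lines therefore does not show whether cluster junctions were lost. In the Rad21 degron line the share of constant-side members that lay within 300 kb of the bait was 66.7%, 66.7% and 91.7% without IAA and 9.09%, 0% and 0% with IAA, means of 75.0% ± 14.4 and 3.03% ± 5.25 (n = 3), with no overlap (exact permutation test, two-sided, p = 0.100, the smallest possible with 3 against 3, 0.476 after adjustment over the 50 planned tests). Without the 10 most used windows, which hold most of the cluster, the difference was -10 points. The IGCR1-deleted line gave 50%, 0%, 80% and 75% without IAA and 0% in all 4 replicates with it, overlapping at 0 (exact permutation p = 0.143, adjusted 0.476).

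In 1 further line, the CTCF degron line, this share separated the treatments. Without IAA it ran from 93.5% through a median of 97.4% to 100%, and with IAA from 73.3% through 80.3% to 87.5%. The groups did not overlap, and their means were 97.4% ± 2.49 and 80.7% ± 5.66 (SD, n = 6 each), a difference of -16.7 percentage points (exact permutation test, two-sided, p = 0.00216, the smallest possible; 0.0794 after Benjamini-Hochberg adjustment over 50 tests, so past no threshold after adjustment). Leaving out replicates 4 and 5 with IAA, of which 3 libraries have no IAA in their treatment label, gave -13.7 points, and leaving out the 10 most used windows gave -37.1. In the parental line the share was 97.8% ± 2.54 without and 92.2% ± 7.14 with IAA (n = 4, exact permutation p = 0.200), in the OsTIR1 line 90.7% ± 7.78 and 88.6% ± 6.06 (n = 4, exact permutation p = 0.657) and in the CTCF-tagged line 90.0% ± 5.51 and 89.2% ± 6.98 (n = 4, exact permutation p = 0.914), all overlapping. Whether the change in share differs between lines was not tested. The CTCF degron share also depends on the distant junctions. Over 1 Mb from the bait their means were 4.56 ± 5.60 per 100000 junctions without IAA and 30.3 ± 19.7 with it (n = 6 each), with overlap. The cluster means of this line were 183 ± 127 and 135 ± 127, also overlapping. Its lower share with IAA therefore does not show by itself whether junctions near the bait were lost.

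The constant-side total per 100000 junctions did not separate the treatments in the same way. In the CTCF degron line it was 206 ± 148 without IAA and 184 ± 161 with it (n = 6, exact permutation p = 0.861, adjusted 1), with both groups spread over 80.5 to 393 and 58.0 to 492. In the parental line it was 68.1 ± 40.3 and 72.7 ± 30.9 (n = 4, exact permutation p = 0.857), in the OsTIR1 line 61.4 ± 23.4 and 52.9 ± 16.2 (exact permutation p = 0.571, n = 4), and in the CTCF-tagged line 63.4 ± 18.4 and 62.3 ± 19.8 (exact permutation p = 0.886, n = 4). In the Rad21 degron line it was 19.1, 24 and 28.6 without IAA and 590, 1186 and 700 with it, without overlap, means of 23.9 ± 4.78 and 826 ± 317 (exact permutation p = 0.100, the smallest possible with n = 3, adjusted 0.476). In the IGCR1-deleted line it was 44.4, 13.0, 93.8 and 55.3 without IAA and 525, 535, 684 and 627 with it, means of 51.7 ± 33.3 and 593 ± 76.4, again without overlap (exact permutation p = 0.0286, the smallest possible with n = 4, adjusted 0.238). Within its 2 sequencing runs the difference was 525 and 590. These are shares of a total that was itself far smaller with IAA: counted per 100000 junctions outside the Igh V(D)J region, the difference in the IGCR1-deleted line was 1302 with an exact permutation p of 0.371 (n = 4).

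The 3 sites were not used in the same proportion in every line. In the parental line without IAA the first site took 60%, 50%, 48.5% and 48.4% of the plus junctions at the 3 sites, and 54.5%, 52.0%, 43.4% and 47.5% with IAA. In the CTCF degron line it took from 2.94% through a median of 6.11% to 12% without IAA, and at most 7.41% with it. The parental and CTCF degron values without IAA did not overlap and had means of 51.7% ± 5.55 (n = 4) and 6.90% ± 3.35 (n = 6), a difference of -44.8 points (exact permutation test, two-sided, p = 0.00476, the smallest possible, and 0.0909 after adjustment over 21 comparisons of the sites). The direction and the absence of overlap held against the parental replicates of either sequencing run, with differences of -41.6 and -48.1 points. In 1 of those runs, that of parental replicates 1 and 2, the shares rest on few junctions. These replicates held 3 and 2 at the first site, 2 and 2 at the second and 0 at the third. All libraries of the CTCF degron line come from 1 sequencing run that holds no parental library, so line and run cannot be told apart here or for the third site. These comparisons of site shares were added after the positions had been seen.

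The CTCF-tagged line, labelled as carrying the tag only, lay between them, with first-site shares of 17.6%, 17.2%, 20% and 22.4% without IAA and 26.7%, 21.7%, 5.88% and 27.6% with it. The OsTIR1 line split by sequencing run: without IAA replicates 1 and 2 gave 66.7% and 70.0% and replicates 3 and 4, from the other run, 6.67% and 21.4%, and with IAA the values were 58.8%, 43.8%, 7.69% and 25% in the same order. Parental replicates 3 and 4 from that same run stayed at 48.5% and 48.4%. The Rad21 degron line without IAA gave 50%, 75% and 27.3%, from few junctions.

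The third site went the other way, at 0%, 0%, 10.3% and 12.4% in the parental line and from 17.8% to 52.4% in the CTCF degron line, without overlap (5.68% ± 6.61, n = 4, and 33.3% ± 13.2, n = 6, exact permutation p = 0.0143, adjusted 0.100). Without parental replicates 1 and 2 the difference of 27.6 points became 21.9 (exact permutation p = 0.0714). With IAA the second site made up more of the CTCF degron junctions, 77.9% ± 5.72 against 59.8% ± 13.3 (n = 6 each, exact permutation p = 0.00866, adjusted 0.0909), and the third less, 17.2% ± 7.66 against 33.3% ± 13.2 (exact permutation p = 0.0281, adjusted 0.100); both overlapped. The proportions also differed between the treatments in lines without the CTCF degron. In the parental line the second site was at 42.6% ± 5.02 without and 29.6% ± 8.12 with IAA, without overlap (n = 4, exact permutation p = 0.0286, the smallest possible, adjusted 0.100), while the third was at 5.68% ± 6.61 and 21.1% ± 7.49, with overlap (n = 4, exact permutation p = 0.0571, adjusted 0.150). In the OsTIR1 line the third site was at 6.43% ± 3.70 and 21.8% ± 11.4 without overlap (n = 4, exact permutation p = 0.0286, adjusted 0.100, and 0.125, the smallest possible, in an exact sign-flip test with the replicate number as a block). Replicates 1 and 2 of the parental line were sequenced in different runs with and without IAA. None of these passed after adjustment over the 21 comparisons, and whether the changes differ between lines was not tested.

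**Figure D3:**
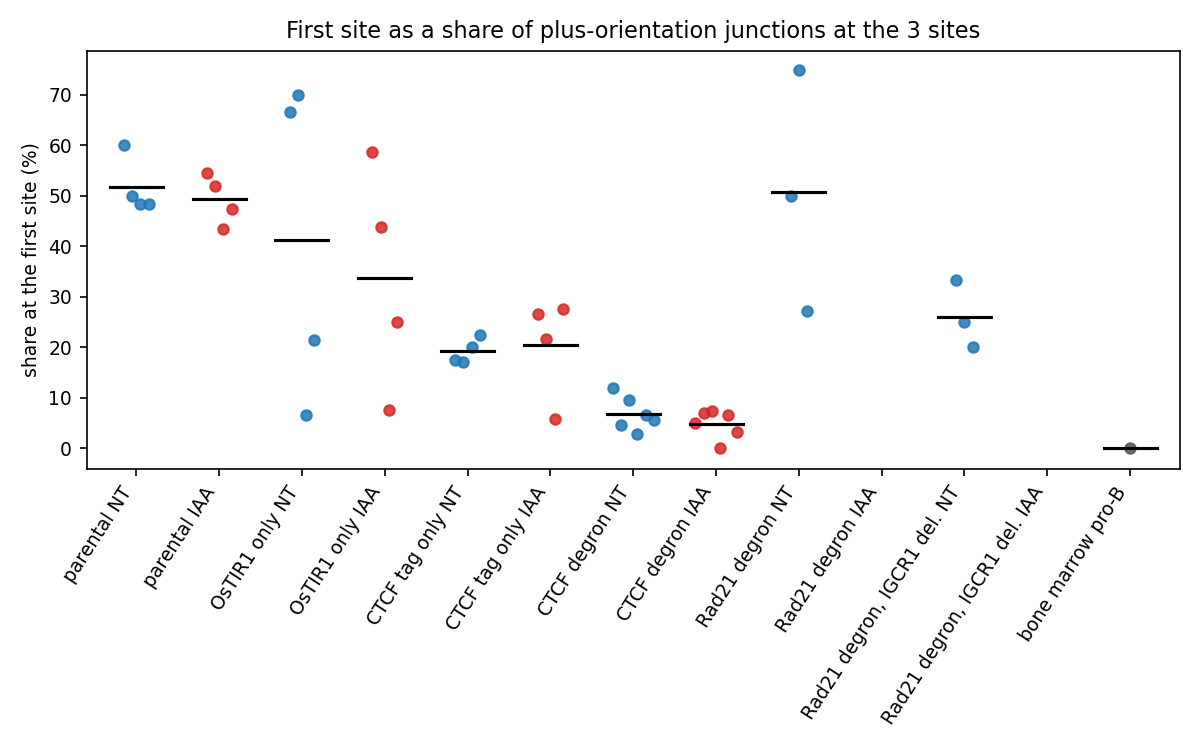
Share of plus junctions at the 3 sites that used the first site (vertical axis, %) in each replicate (points) with the group mean (bar), by group. Parental replicates lie between 43.4% and 60%, CTCF degron replicates at or below 12%, and the OsTIR1 line splits into values above 40% and values of 25% or less.

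Past the cluster, up to 300 kb from the bait, junctions were rare in every group but one. The CTCF degron line with IAA held 16 of the 37, all in plus orientation and in 5 of 6 replicates, which is 7.41 per 100 of its own cluster junctions. The same line without IAA held 2, or 0.458 per 100, and no other group exceeded 4.48 per 100. Per 100000 junctions its replicates ran from 0 through a median of 7.29 to 32.3 with IAA and from 0 through 0 to 3.67 without, so the groups overlapped. The stretch was singled out after its values were seen and has no test.

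Of those 16 junctions, 10 lay at 1 site in an intron of 4930427A07Rik, 264647 bp from the bait, in 5 of 6 replicates. The reference sequence of that site is shown because the junctions sit on an exact canonical heptamer, in capitals (mm9 plus strand, chr12:114406430-114406549).
4930427A07Rik site: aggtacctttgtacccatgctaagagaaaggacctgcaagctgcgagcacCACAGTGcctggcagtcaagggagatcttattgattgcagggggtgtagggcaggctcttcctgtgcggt

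Of all 11 plus junctions there, 8 had a prey that began from 1 base before that CAC, at 114406480, to 6 bases after it. The eleventh came from the OsTIR1 line with IAA, and 1 minus junction at the same place came from the CTCF-tagged line with IAA. The word CACAGTG occurs 31100 times on either strand of chromosome 12, or 26.5 times per 100 kb, so the word itself is common along the chromosome. A given position of a strand starts it in 0.0132% of cases. How often a match would lie this close to such a site was not tested. Another 5 of the 16 lay at or near 114440380 in replicate 1 only, 4 of them identical, with 1 like them in replicate 1 without IAA. A different site, near 114386893 between Crip2 and Crip1, held 5 plus and 2 minus junctions, all from the parental and CTCF-tagged lines and 0 from the CTCF degron line within this window.

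**Figure D4:**
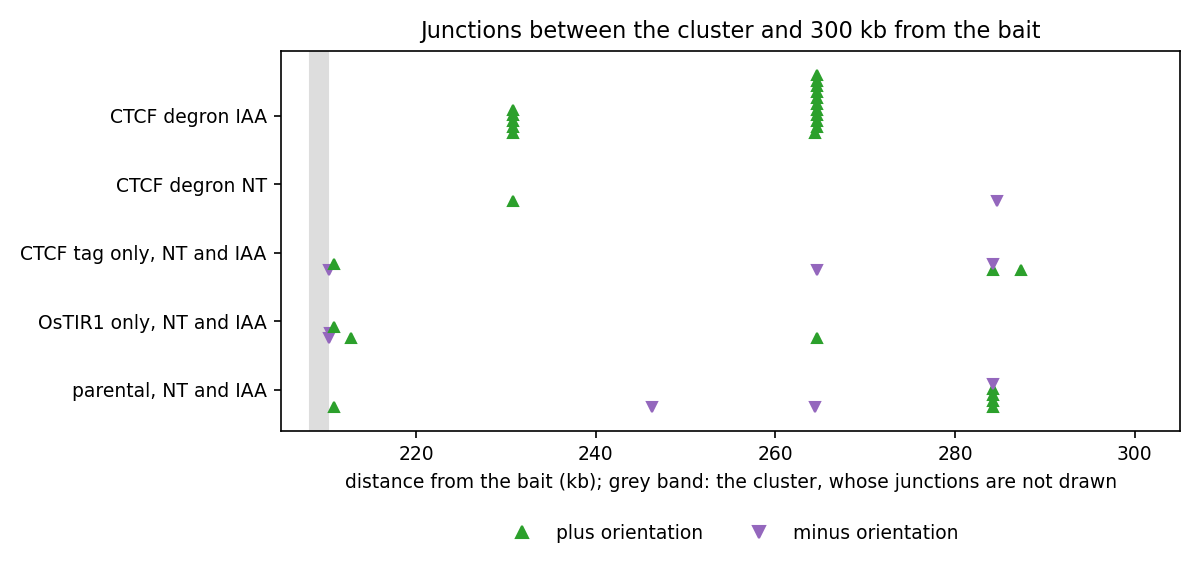
Each junction between the cluster (grey band) and 300 kb from the bait, by distance from the bait (horizontal axis, kb) and group of libraries (rows), with upward triangles for plus and downward triangles for minus orientation. The CTCF degron line with IAA shows 16 plus junctions, 10 of them at the site in 4930427A07Rik.

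Between that site and the first site of the cluster, a stretch of 54.6 kb of mm9, the letters CCANNAGNNGGC, the core of the CTCF-binding motif, matched 11 times on both strands together, 5 on the plus and 6 on the minus strand. This is 20.2 matches per 100 kb against 5.40 over chromosome 12. The closest match to the cluster lay 1457 bp below the first site, at 114459619 to 114459630, and the cluster itself held 0. A match is only a run of letters, and no CTCF binding was measured here.

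In the interval of the constant genes, 198 of 281 junctions (70.5%) were in plus orientation. Ighg1 and Ighg2c and the genes annotated as Gm900, Ighg and AI324046 held 0 junctions each, where a match to mm9 could be made; Ighm lies outside the members by their rule. A window between Ighg and Ighg1 held 21 plus junctions from 8 groups (commonest mm9 position 114559266), and another window of the interval, at 114467629, held as many from 7 groups. A group of 30 minus junctions (16 with identical ones counted once) lay about 5306 bp above Ighg, 24 of them in the OsTIR1 line. Only 18 of the 30 had 1 best match on mm9. The same window held 24 plus junctions (23 counted once), all from the parental and OsTIR1 lines. At mm9 114499965, 17 minus junctions (10 counted once) all came from replicate 4 of the OsTIR1 line, 10 without IAA and 7 with it. A single sequencing run, that of replicates 3 and 4 of the parental and OsTIR1 lines, held 144 of the 281 junctions and 57 of the 83 in minus orientation, with 30.7% of all junctions; its part in these values was not tested. In the CTCF degron line the interval gave 17.7 ± 18.2 per 100000 without IAA and 7.41 ± 4.50 with it (n = 6 each). In bone marrow it held 18 of the 24 members, but 10 of them were identical reads of 1 library and another 7, from 1 library, were 2 distinct junctions.

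Among the flanking genes, Tmem121 and Pacs2 held 1 junction each of the 11 genes examined on the constant side, and 4930427A07Rik held 14, of which 11 were from the CTCF degron line with IAA. On the distal side Ptprn2 held 4 of the 16 junctions, and Vipr2, Wdr60, Esyt2 and Ncapg2 held 0; Zfp386 lies inside the boundary and could hold none by the rule. The remaining windows among the 10 most used were a plus window in the cluster at 114461718 (44 junctions, 7 groups), the minus windows at the third and second sites (40 and 29 junctions), the plus window at 114467629, and on the rest of the chromosome 41620289 (5 junctions, 4 groups, with no single match on mm9) and 3109921 (4 junctions, 3 groups).

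Farther than 1 Mb from the bait the 337 junctions were close to even in orientation, 189 plus and 148 minus, and scattered. Per 100000 junctions the Rad21 degron line gave 6.33, 7.89 and 2.39 without IAA and 531, 1186 and 700 with it, from 6 and 42 junctions. The IGCR1-deleted line gave 22.2, 13.0, 18.8 and 13.8 without IAA and 525, 490, 684 and 627 with it, from 8 and 48 junctions. Neither pair of groups overlapped. The CTCF degron line ran from 0 through a median of 3.53 to 15.2 without IAA and from 14.2 through 23.5 to 65.9 with it, from 11 and 50 junctions, and overlapped only through replicate 1 without IAA. In the parental line the mean was 2.09 ± 2.42 without and 6.66 ± 6.10 with IAA, and in the other control lines it stayed between 5.71 and 6.49.

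These distant levels were set against those of other chromosomes, leaving out chromosome 6, which alone held 5233 of the 13009 junctions outside chromosome 12. Per Mb and per 100000 junctions, the Rad21 degron line with IAA had 7.09 ± 2.99 on chromosome 12 over 1 Mb away and 5.86 ± 2.67 on the other chromosomes (n = 3). Its IGCR1-deleted form had 5.12 ± 0.789 and 3.94 ± 1.17 (n = 4), and the CTCF degron line with IAA 0.267 ± 0.174 and 0.226 ± 0.0790 (n = 6). Without IAA the CTCF degron line had 0.0401 ± 0.0493 and 0.0700 ± 0.0254. Across the 13 groups the ratio of chromosome 12 to the other chromosomes ran from 0.188 in bone marrow to 1.30 in the IGCR1-deleted line with IAA. In the 3 degron groups with IAA, the level per Mb was higher than without IAA both on distant chromosome 12 and on the other chromosomes. The means were also higher with IAA in the 3 control lines, where replicates overlapped. On distant chromosome 12 they were 0.0184 and 0.0586 (parental), 0.0558 and 0.0571 (OsTIR1) and 0.0502 and 0.0541 (CTCF-tagged), without and with IAA. On the other chromosomes they were 0.0562 and 0.0616, 0.0507 and 0.0927, and 0.0601 and 0.0702 in the same order. Totals with IAA were far smaller in the Rad21 degron lines.

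Orientation on the constant side also separated the Rad21 degron treatments. Among constant-side members 100%, 83.3% and 91.7% were plus in the Rad21 degron replicates without IAA and 54.5%, 26.7% and 41.2% with IAA, means of 91.7% ± 8.33 and 40.8% ± 13.9 without overlap (n = 3, exact permutation p = 0.100, the smallest possible, adjusted 0.476). In the IGCR1-deleted line the means were 72.9% ± 20.8 and 55.7% ± 13.2 (n = 4, exact permutation p = 0.229, adjusted 0.544). With the 10 most used windows left out the difference turned positive in both, 2.98 and 16.8 points. The CTCF degron line stayed mostly plus in both treatments, 94.3% ± 3.91 and 90.4% ± 7.37 (n = 6).

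Between lines without IAA, constant-side members made up 206 ± 148 per 100000 in the CTCF degron line (n = 6) and 68.1 ± 40.3 in the parental line (n = 4), overlapping (exact permutation p = 0.124, adjusted 0.476). The Rad21 degron line had 23.9 ± 4.78 (n = 3), which overlapped the parental range through its highest value (exact permutation p = 0.171, adjusted 0.50), and a lower share within 300 kb, 75.0% ± 14.4 against 97.8% ± 2.54, without overlap (exact permutation p = 0.0286, the smallest possible with n = 3 against 4, adjusted 0.238). Over b libraries alone the IGCR1-deleted line had 51.7 ± 33.3 (n = 4) and its undeleted form 15.7 ± 10.1 (n = 3, exact permutation p = 0.143, adjusted 0.476). The deleted and undeleted lines share no sequencing run, so line and run cannot be told apart. Bone marrow pro-B cells had 5.72 ± 7.95 (n = 6), from 0 through a median of 2.12 to 20.1, all below the lowest parental replicate at 28.3 (exact permutation p = 0.00476, the smallest possible with n = 6 against 4, adjusted 0.0794).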

How the data were processed

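LAM-HTGTS junctions were analysed in 98 full libraries of 13 groups; 12 lists of off-target junctions were not used. The authors' deposited junction lists have 1 line per junction read and no column of counts. Per the label descriptions the genome was mm9 with part of Igh replaced by a deposited sequence of that locus; the submitters' processing notes name Bowtie2 and mm9, and filters are not given in the sources used here. Groups and replicate numbers came from titles; for 4 libraries titled IAA the treatment label names no IAA, and the title was followed. Identical junctions were kept, as deposited.

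Members and lists were chosen with earlier results of these data known. Shares per 100000 junctions are means of the a and b libraries of a replicate; site and orientation shares pool both. Prey sequences were matched to mm9 with blastn 2.17.0: 2765 of 2861 had 1 best match on chromosome 12, at the deposited position up to 114489447, beyond which only mm9 positions of matches are given. Genes are those of the mm9 annotation, and reference sequences were read from mm9.

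Sites are 200 bp windows per orientation, ranked by mean share over libraries; the first 10 with junctions in at least 3 groups are named. The 5 planned shares in 10 comparisons were tested by two-sided exact permutation (Benjamini-Hochberg over 50). Bins of distance and orientation with a mean of at least 10 junctions were tested with limma 3.58.1. The test used log2 of the share with a pseudocount of 0.5. Simulated log2 changes of 2 were recovered in 90.7% to 100% of bins, and 4.23% to 16.7% of calls were false. These rates hold only for the spread between replicates that was simulated. The cluster varied widely, at 183 ± 127 per 100000 junctions in the CTCF degron line without IAA (SD, n = 6). How often a change of that size would be found in the cluster bin, at its own spread, was not tested. Where a count was 0, 3 junctions of the total give the limit. Intervals and limits cover counting error only.

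Same-numbered replicates with and without IAA deviated together in every pair only in the OsTIR1 line (correlations 0.40 to 0.78 over 4 pairs). In the CTCF degron line 4 of 6 pairs had correlations over 0.1 (range -0.17 to 0.88). No label ties the numbers, and the comparisons of groups left replicates unpaired unless a block is named. Same-numbered replicates with and without IAA did share a sequencing run in every line, except parental replicates 1 and 2. In the Rad21 degron line each run held 1 replicate of each treatment, so number and run coincide there. With the block the third-site share of the OsTIR1 line lost its unadjusted call (exact permutation p = 0.0286, exact sign-flip p = 0.125). Alternatives were other totals, identical junctions counted once, a or b libraries alone, a replicate block, the top windows left out, no minimum, and each replicate left out.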

Additional observations from a re-analysis of the deposited data

Results flagged for a closer look

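Each group of 4 to 6 replicates was examined for a replicate far from the rest in 5 levels, 49 groups and levels in all, and 4 stood apart. Chance alone sets apart about 1 in 20 such groups. Replicate 1 of the CTCF degron line with IAA was far above the other 5 both in the cluster, at 379 per 100000 junctions, and past the cluster, at 32.3. Without it the cluster mean of that group was 86.3 ± 47.4 (n = 5) and the mean past the cluster 5.81 ± 4.14 (n = 5). Replicate 1 of the same line without IAA was the highest over 1 Mb from the bait, at 15.2 per 100000, and without it the mean there was 2.44 ± 2.32 (n = 5). Without replicate 1 in either treatment the share of constant-side junctions within 300 kb of the bait was 97.7% ± 2.70 without IAA and 79.5% ± 5.40 with it. In bone marrow, replicate 1 held the single cluster junction of that group and stood at 1.26 per 100000 against 0 in the other 5.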

How the results depend on the processing

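Each difference is given as first minus second group, per 100000 junctions or in percentage points, against an unadjusted exact permutation p of 0.05. Outside single-replicate omissions, 431 of the recomputed values kept direction and side, 25 reversed, 22 fell back over the threshold and 15 came past it. The CTCF degron share within 300 kb kept both in each setting tried, from -37.1 with the 10 most used windows left out to -13.7 without replicates 4 and 5; its Rad21 degron counterpart kept its direction, at -10 without those windows, and cannot pass with 3 replicates. The causes of the changes below were not tested.

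With only junctions outside Igh V(D)J as total, the IGCR1-deleted IAA differences became 1556 (all members) and 1302 (constant side), no longer past it, and the CTCF degron ones -18961 and -19141, now past it. With the 10 top windows left out, the CTCF degron IAA differences turned to 28.1, 26.1 and, for plus orientation, 4.64; the OsTIR1 ones to 1.53, 0.940 and, within 300 kb, 2.91; plus orientation to 2.98 in the Rad21 degron and 16.8 in the IGCR1-deleted line; Rad21 degron against parental within 300 kb became -66.2, larger than the -22.8 reported but no longer past the threshold, and bone marrow against parental became -4.78 and -5.17, also no longer past it. Without CTCF degron IAA replicates 4 and 5, a setting added after seeing the data, the totals turned to 36.6 and 34.6. Identical junctions counted once turned the parental IAA differences to -29.4 and -31.4 and CTCF-tagged plus orientation to -0.243. In a libraries alone, values turned to -2.22 and -2.22 (parental), 4.16, 4.11 and 1.98 (CTCF-tagged), 0.239 (CTCF degron against parental within 300 kb) and 6.64 (Rad21 degron against parental, plus orientation), and Rad21 degron against parental within 300 kb, at -15.0, was no longer past the threshold. In b libraries alone, values turned to -2.63 and -0.497 (distal side, Rad21 degron and OsTIR1), -2.15 (CTCF-tagged, plus orientation), -4.05 (CTCF degron against parental, plus orientation) and 0.0241 (CTCF degron IAA, first site), and Rad21 degron against parental within 300 kb, at -19.5, was no longer past it.

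With the replicate number as a block (replicate block), where the numbers pair nothing by label, calls were lost for the IGCR1-deleted IAA differences (561 and 541, p = 0.125, the smallest the exact sign-flip test allows), bone marrow (-63.9 and -64.5), Rad21 degron against parental within 300 kb (-23.7), the first and the third sites in CTCF degron against parental (-44.5 and 33.3), the second site in parental IAA (-13.0) and the third in OsTIR1 IAA (15.4). It changed no other call among the planned shares and these sites in the CTCF degron, parental and OsTIR1 lines. The second and the third sites were added after seeing the data: their unadjusted calls were also lost in b libraries alone for the second site (13.3 in CTCF degron IAA, -1.04 in parental IAA), in a libraries alone for the third (-16.7 in CTCF degron IAA, 8.83 in OsTIR1 IAA), and counted once for the second in parental IAA (-12.1). Bins past the limma threshold rose from 0 with no minimum to 7 (Rad21 degron IAA, 82.4% of all bins higher), 8 (IGCR1-deleted IAA, 85.7%) and 4 (CTCF degron IAA, 53.8%), and from 1 to 2 in bone marrow, and in the first 2 a bin with 0 junctions against 1 could be called higher; with outside totals to 1 in CTCF degron IAA and in CTCF degron against parental, and counted once to 1 in CTCF degron IAA.

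With each replicate left out in turn, differences ran as follows where any changed direction or side. For all members: -82.3 to 17.2 (CTCF degron IAA), -8.54 to 19.4 (parental IAA), -17.4 to 1.61 (OsTIR1 IAA) and -9.39 to 7.55 (CTCF-tagged IAA). For the constant side: -83.7 to 15.2, -8.69 to 19.2, -18.0 to 1.10 and -9.48 to 7.22 in the same order. Within 300 kb: -68.3 to -41.7 (IGCR1-deleted IAA), -8.21 to -2.52 (parental IAA), -4.50 to 0.955 (OsTIR1 IAA), -2.81 to 2.12 (CTCF-tagged IAA), -1.30 to 0.375 (CTCF degron against parental), -24.9 to -8.26 (bone marrow) and -31.2 to -18.7 (Rad21 degron against parental, where a smaller group leaves no p under 0.05). Distal side: -1.31 to 39.7 (Rad21 degron IAA) and -0.248 to 0.873 (OsTIR1 IAA). Plus orientation: -1.32 to 1.32 (CTCF-tagged IAA), -0.253 to 5.30 (CTCF degron against parental) and -4.23 to 4.10 (Rad21 degron against parental). The log2 difference in the 200 to 300 kb plus bin ran from -0.70 to 0.24 in CTCF degron IAA, above 0 without IAA replicate 4 or 5 or NT replicate 1, and from -0.23 to 0.24 in the CTCF-tagged line. The second site ran from -17.2 to 4.50 in OsTIR1 IAA and from -15.1 to -9.18 in parental IAA, and the third from 9.87 to 18.5 in OsTIR1 IAA and from -19.2 to -12.3 in CTCF degron IAA. In all, 582 values kept direction and side, 49 reversed, 19 fell back over the threshold and 5 came past it.

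The Rad21 degron lines with IAA limit the precision most, with 1263 to 2668 junctions per replicate, and many shares rest on fewer than 10 member junctions per replicate. Positions depend on a hybrid genome that was not used here; 67 members had no mm9 match and 27 had several.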
